A study of Mus musculus with 8 samples.

Results

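The 8 genes examined here encode transcription factors that establish or maintain the identity of pancreatic acinar cells, the exocrine cells that make digestive enzymes. They are *Ptf1a*, *Rbpjl*, *Rbpj*, *Bhlha15* (MIST1), *Nr5a2*, *Gata4*, *Gata6*, and *Pdx1*, chosen by name for this role with earlier results of these data known. All 8 were among the 48709 genes of the deposited files, and all 8 were among the 11133 genes tested. RNA-Seq was performed on pancreata of male mice aged 8 weeks, 24 hours after saline or after palmitoleic acid (POA) and ethanol, a combination that forms fatty acid ethyl esters and causes severe acute pancreatitis (FAEE-SAP). The mice were WT or cKO, in which floxed *Pfkfb3*, a gene of glycolytic regulation, is deleted by Cre under the *Pdx1* promoter, so the promoter of 1 of the 8 genes drives the deletion. The floxed line was made in C57BL/6J eggs, whereas the WT mice were bought from a commercial supplier. There were 2 libraries, described as biological replicates, in each of the 4 groups (WT saline, cKO saline, WT FAEE-SAP, and cKO FAEE-SAP).

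As background, PTF1A is a basic helix-loop-helix (bHLH) factor that pairs with an E protein and binds DNA with a further subunit, RBPJ in the embryo and its paralog RBPJL in mature acinar cells. This trimer, PTF1, recognises an E box next to a TGGGAA box and drives the genes of digestive enzymes. MIST1 is another bHLH factor, which sets up the secretory apparatus and granule packing, and NR5A2 is a nuclear receptor that acts with PTF1. GATA4 and GATA6 are zinc finger factors of pancreas specification, GATA6 with a role in adult acinar cells, and PDX1 marks the early pancreatic epithelium, remaining high in beta cells and low in acinar cells.

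Promoter windows from RefSeq (GRCm38.p6) were matched to 6 of the 8 genes. The 3 shown are those of *Ptf1a* and *Bhlha15*, the genes with the changes described below, and of *Rbpjl*, which was higher in the same library of each group as both. Each runs 5′ to 3′ on the plus strand and ends at the base before the first annotated base of the gene, and capitals mark CANNTG (the E box) and TGGGAA on either strand.
Ptf1a (chr2:19445413-19445662): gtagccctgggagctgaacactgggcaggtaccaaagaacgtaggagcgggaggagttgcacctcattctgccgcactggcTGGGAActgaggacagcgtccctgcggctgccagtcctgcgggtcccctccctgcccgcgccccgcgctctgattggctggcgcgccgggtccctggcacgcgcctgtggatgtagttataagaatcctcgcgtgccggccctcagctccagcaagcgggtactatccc
Rbpjl (chr2:164402944-164403140): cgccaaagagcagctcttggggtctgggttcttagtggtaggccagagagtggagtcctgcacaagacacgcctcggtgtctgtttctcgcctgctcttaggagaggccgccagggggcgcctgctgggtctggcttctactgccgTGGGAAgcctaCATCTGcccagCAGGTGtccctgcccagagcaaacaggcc
Bhlha15 (chr5:144190036-144190285): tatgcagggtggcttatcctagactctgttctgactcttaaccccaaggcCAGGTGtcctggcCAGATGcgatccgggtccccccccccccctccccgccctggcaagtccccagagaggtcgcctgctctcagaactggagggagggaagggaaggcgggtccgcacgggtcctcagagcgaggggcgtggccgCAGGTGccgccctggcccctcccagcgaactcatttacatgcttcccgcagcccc
The *Rbpjl* window holds TGGGAA followed, after 5 bases, by an E box, and a second E box after that. The *Bhlha15* window has 3 E boxes and no TGGGAA, and the *Ptf1a* window has 1 TGGGAA and no E box. In the 250 bases before the start, CANNTG was found in 6 of the 8 promoter entries of the 6 matched genes (75.0%, those of *Bhlha15*, *Nr5a2*, *Pdx1*, *Rbpj*, and *Rbpjl*) and in 66.2% of all 32851 RefSeq promoters. The narrower CACCTG, which is part of the E box motif, was found in 5 of the 8 (62.5%), of the same 5 genes, and in 17.2% of all promoters. TGGGAA was found in 4 of the 8 (50.0%), those of *Ptf1a*, *Rbpj*, and *Rbpjl*, and in 21.6% of all. An E box and TGGGAA 3 to 18 bases apart, in the order seen in *Rbpjl* on either strand, was found in 1 of the 8 (12.5%), that of *Rbpjl*, and in 1.65% of all promoters. Among the 13 digestive enzyme genes with a promoter entry, *Cel* and *Ctrb1* held such a pair. These motifs were chosen after the windows had been read, and a match is a description of letters only.

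The genes lie on 5 chromosomes of GRCm38. *Ptf1a* (chr2:19445663-19447501) and *Rbpjl* (chr2:164403141-164415448) are on chromosome 2. *Rbpj* (chr5:53466152-53657362), *Bhlha15* (chr5:144190286-144194441), and *Pdx1* (chr5:147269959-147275848) are on chromosome 5, all on the plus strand. *Nr5a2* (chr1:136842571-136960448) and *Gata4* (chr14:63198922-63271692) are on the minus strand, and *Gata6* (chr18:11052064-11085635) is on the plus strand. Genes on the opposite strand overlap *Ptf1a*, *Rbpjl*, *Rbpj*, and *Gata6*. The library kit keeps strand, but the sources used here do not state how the counting used it. The partner of *Rbpjl*, *Matn4*, was at 0.517 to 2.32 RPKM (reads per length of exon and depth of library) as deposited, and that of *Gata6*, 1010001N08Rik, at 0.222 to 1.03 RPKM, below *Gata6* itself, whose deposited range was 1.36 to 2.88 RPKM.

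The libraries held 22.9 to 37.7 M mapped reads, worked out from the steps of the low RPKM values. *Pfkfb3* did not separate the genotypes, with scaled RPKM after saline of 0.885 and 2.11 in cKO against 1.70 and 1.71 in WT, and after FAEE-SAP of 1.74 and 2.84 against 1.86 and 3.23, and a value per gene does not show the loss of a few exons. The 16 digestive enzyme genes listed here took 45.5% to 47.7% of all RPKM after saline, but 36.0% and 36.2% after FAEE-SAP in WT, with 43.1% and 43.4% for cKO. Values below were scaled so that the median gene is level across libraries. Against that scale, the median gene of the deposited values was higher by 1.23 (log2) with FAEE-SAP in WT and by 0.58 in cKO, and was lower in cKO than in WT by 0.90 with FAEE-SAP and by 0.26 with saline. Every change given here is thus a change relative to the median gene, and the deposited values are given where they turn the direction of a factor. RPKM is per length, so levels of different genes can be compared.

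In WT pancreata, FAEE-SAP lowered *Bhlha15* and *Ptf1a*, and in FAEE-SAP *Bhlha15* was higher in cKO than in WT. *Bhlha15* fell 10.99-fold in WT with FAEE-SAP and was 7.51-fold higher in cKO FAEE-SAP than in WT FAEE-SAP. *Ptf1a* fell 3.47-fold in WT. The call of *Ptf1a* and that of *Bhlha15* between genotypes were each lost when some single libraries were left out, as given below. No other member passed the threshold in any comparison, which was an adjusted p-value under 0.05 over all genes (limma, Benjamini-Hochberg) and a change of at least 2-fold. In bulk tissue, fewer acinar cells and less RNA of a gene per acinar cell cannot be told apart.

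**Figure D1:**
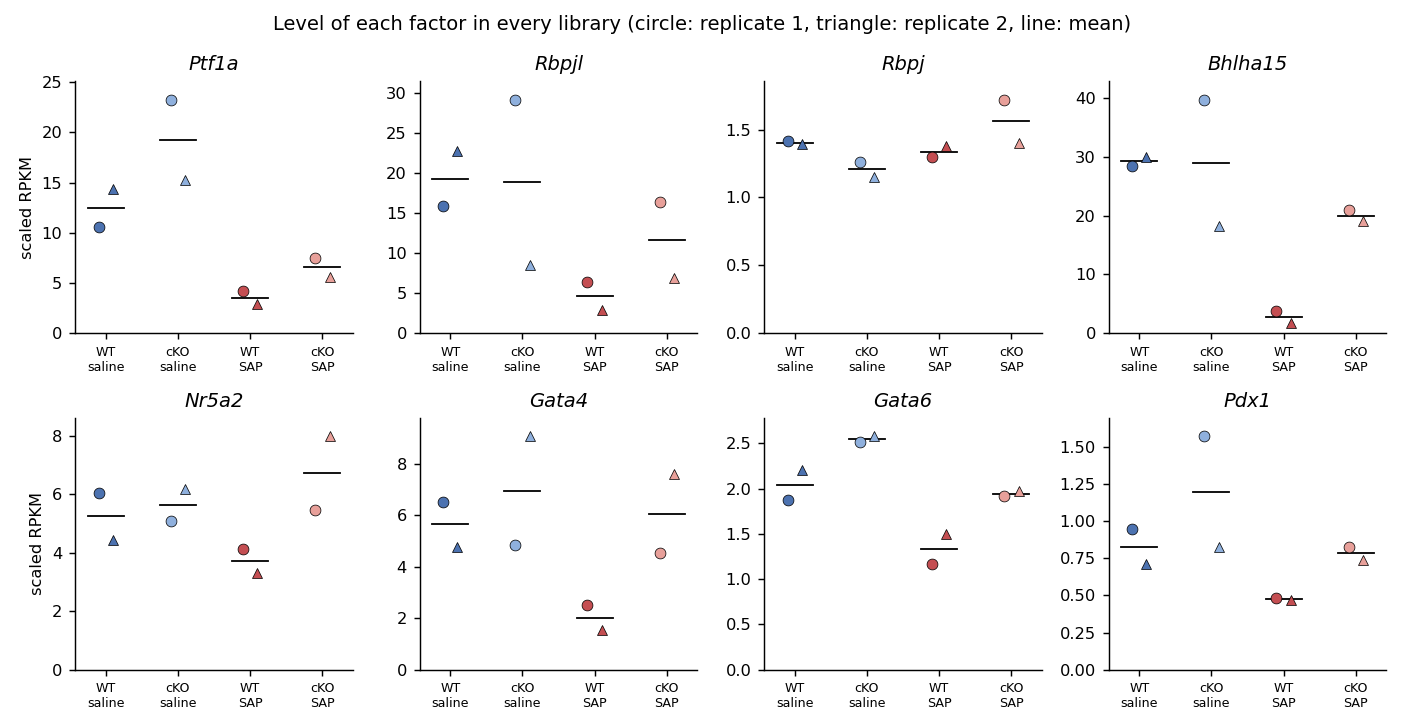
Scaled RPKM (y axis, linear, from 0) of the 8 factors in each of the 8 libraries, by group (x axis, SAP for FAEE-SAP). Lines are means of 2 libraries; *Bhlha15* in WT FAEE-SAP lies at 3.83 and 1.72, below every other library, and *Rbpj* stays between 1.15 and 1.72 throughout.

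*Bhlha15* had the highest level of the 8 genes in saline WT pancreas. Its scaled RPKM was 28.4 and 30.1 after saline and 3.83 and 1.72 after FAEE-SAP in WT, against 39.8 and 18.3 after saline and 20.9 and 19.1 after FAEE-SAP in cKO. The WT FAEE-SAP libraries were below every other one, and the cKO FAEE-SAP libraries lay inside the range of cKO saline. The group means were 29.3 ± 1.17, 29.0 ± 15.2, 2.77 ± 1.495, and 19.99 ± 1.32 (SD, n = 2 each), so WT saline and cKO saline did not differ beyond their spread. The log2 fold change with FAEE-SAP was -3.46 in WT (SE 0.44, adjusted p = 0.00577, limma) and -0.43 in cKO (SE 0.44, adjusted p = 0.748, limma). For cKO against WT it was 2.91 with FAEE-SAP (SE 0.44, adjusted p = 0.0254, limma) and -0.12 with saline (SE 0.44, adjusted p = 1.0, limma). The decrease in WT was called under each of the alternative settings and with each library left out. The difference in FAEE-SAP kept its direction throughout but was no longer called without WT saline replicate 1 (adjusted p = 0.0532) or 2 (0.0524), WT FAEE-SAP replicate 2 (0.125), or cKO FAEE-SAP replicate 1 (0.108) or 2 (0.104), or with no filter on low values (0.0719), from limma. The difference between the responses of the genotypes was 3.03 (SE 0.62), which failed the correction over all genes (unadjusted p = 0.00158, adjusted p = 0.166, limma). As deposited it was at 20.6 and 25.9 RPKM after saline and 7.71 and 3.30 after FAEE-SAP for WT, and at 24.6 and 12.1 after saline and 21.8 and 18.5 after FAEE-SAP for cKO. There the log2 fold change was -2.17 in WT and 1.97 in cKO against WT with FAEE-SAP, while that in cKO turned to 0.22.

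*Ptf1a*, the pancreas-restricted subunit of PTF1, was lower with FAEE-SAP in both genotypes. Its scaled RPKM was 10.6 and 14.4 (saline) and 4.18 and 2.89 (FAEE-SAP) in WT pancreata and 23.3 and 15.2 (saline) and 7.50 and 5.61 (FAEE-SAP) in cKO pancreata. The 4 groups did not overlap, in the order cKO saline, WT saline, cKO FAEE-SAP, and WT FAEE-SAP. Their means were 19.2 ± 5.68, 12.5 ± 2.71, 6.56 ± 1.33, and 3.54 ± 0.909 (SD, n = 2 each). The log2 fold change with FAEE-SAP was -1.80 in WT (SE 0.30, adjusted p = 0.0145, limma) and -1.52 in cKO (SE 0.30, adjusted p = 0.140, limma), and the difference between these responses was 0.27 (SE 0.42, adjusted p = 0.828, limma), which was -0.37 as deposited. The call in WT was lost without WT saline replicate 1 (adjusted p = 0.0569) or 2 (0.0826) or WT FAEE-SAP replicate 2 (0.109), from limma. It was also lost with the values as deposited, where the log2 fold change was -0.50 (adjusted p = 0.194, limma). There, *Ptf1a* was at 7.64 and 12.4 RPKM in WT saline and at 8.41 and 5.57 in WT FAEE-SAP, so these groups overlapped. Between genotypes the log2 difference (cKO minus WT) was 0.88 with FAEE-SAP (SE 0.30, adjusted p = 0.142, limma) and 0.61 with saline (SE 0.30, adjusted p = 1.0, limma), the former turning to -0.07 as deposited.

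*Rbpjl*, the RBPJ paralog of mature acinar cells, varied most between libraries of 1 group. Its scaled RPKM was 15.9 and 22.7 after saline and 6.32 and 2.92 after FAEE-SAP in WT, against 29.2 and 8.50 after saline and 16.4 and 6.84 after FAEE-SAP in cKO. Both WT FAEE-SAP libraries were below all others, while the 2 cKO saline libraries differed 3.43-fold. The log2 fold change in WT was -2.12 (SE 0.66, adjusted p = 0.0845, limma), and that in cKO was -0.57 (SE 0.66, adjusted p = 0.787, limma). The difference in WT passed the threshold when only the WT libraries were fitted (adjusted p = 0.0355, limma). With FAEE-SAP, cKO exceeded WT by 1.28 (SE 0.66, adjusted p = 0.302, limma). As deposited, the change in WT was -0.82 (adjusted p = 0.280, limma), that in cKO turned to 0.081, and cKO exceeded WT by 0.33. In each of the 4 groups the library with more *Rbpjl* was also the one with more *Ptf1a* and more *Bhlha15*. This was replicate 2 in WT saline and replicate 1 in the other 3 groups. *Nr5a2* and *Gata4* likewise shared their higher library in all 4 groups, but shared it with *Ptf1a* in 1 of 4.

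*Rbpj*, the ubiquitous subunit that also carries Notch signals, was low and nearly level. Its scaled RPKM was 1.42 and 1.39 (saline) and 1.30 and 1.38 (FAEE-SAP) in WT pancreata and 1.26 and 1.15 (saline) and 1.72 and 1.40 (FAEE-SAP) in cKO pancreata. The WT libraries with FAEE-SAP were below those with saline by -0.07 on the log2 scale (SE 0.18, adjusted p = 0.847, limma), and the cKO libraries were above theirs by 0.34 (SE 0.18, adjusted p = 0.532, limma). As deposited, *Rbpj* followed the shift of the median gene, and its log2 fold change in WT was 1.17 (adjusted p = 0.00167, limma).

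*Nr5a2* and *Gata4* moved alike over the libraries (r = 0.903 over 8 libraries, which share their scaling), and neither was called. *Nr5a2* was at 6.05 and 4.43 scaled RPKM after saline and 4.11 and 3.29 after FAEE-SAP in WT, against 5.07 and 6.16 after saline and 5.47 and 7.97 after FAEE-SAP in cKO. *Gata4* was at 6.53 and 4.79 (saline) and 2.50 and 1.54 (FAEE-SAP) in WT pancreata and 4.87 and 9.07 (saline) and 4.53 and 7.61 (FAEE-SAP) in cKO pancreata. For both genes the WT FAEE-SAP libraries were the 2 lowest of 8, and the other 3 groups overlapped. For *Gata4* the log2 fold change in WT was -1.46 (SE 0.39, adjusted p = 0.0584, limma), and cKO exceeded WT in FAEE-SAP by 1.53 (SE 0.39, adjusted p = 0.0859, limma). The decrease of *Gata4* in WT was called when only the WT libraries were fitted (adjusted p = 0.0442, limma), as it was with an RPKM minimum of 2 (0.0421). As deposited it was only -0.18 (adjusted p = 0.668, limma), and cKO exceeded WT in FAEE-SAP by 0.60 (adjusted p = 0.206, limma). For *Nr5a2* the values were -0.48 (SE 0.26, adjusted p = 0.262, limma) and 0.83 (SE 0.26, adjusted p = 0.118, limma), both of the opposite sign as deposited (0.81 and -0.12).

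*Gata6* was at 1.87 and 2.21 scaled RPKM after saline and 1.17 and 1.49 after FAEE-SAP in WT, against 2.51 and 2.58 after saline and 1.92 and 1.97 after FAEE-SAP in cKO. The cKO saline libraries were the highest and the WT FAEE-SAP libraries the lowest, and WT saline overlapped cKO FAEE-SAP. The log2 fold change with FAEE-SAP was -0.58 in WT (SE 0.19, adjusted p = 0.0885, limma) and -0.37 in cKO (SE 0.19, adjusted p = 0.513, limma), and as deposited these became 0.66 and 0.25. In FAEE-SAP cKO exceeded WT by 0.52 (SE 0.19, adjusted p = 0.155, limma), which was -0.40 as deposited. The *Gata4* to *Gata6* ratio, free of any scaling, was 3.485 and 2.17 after saline and 2.13 and 1.03 after FAEE-SAP in WT. In cKO it was 1.94 and 3.52 after saline and 2.36 and 3.86 after FAEE-SAP.

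*Pdx1* had the lowest mean level of the 8 in every group. Its scaled RPKM was 0.947 and 0.708 (saline) and 0.482 and 0.470 (FAEE-SAP) in WT pancreata and 1.57 and 0.825 (saline) and 0.822 and 0.741 (FAEE-SAP) in cKO pancreata. The WT FAEE-SAP libraries were again lowest, and the other 3 groups overlapped except for the 2 cKO groups, which were separated by only 0.825 against 0.822. About 36 to 79 reads lay behind each value, for a counting error alone of 11.3% to 16.7%, against 1.60% to 6.31% for the other 7 genes. The log2 fold change with FAEE-SAP was -0.68 in WT (SE 0.30, adjusted p = 0.190, limma) and -0.50 in cKO (SE 0.30, adjusted p = 0.577, limma), of the opposite sign as deposited (0.47 and 0.09). Between cKO and WT, *Pdx1* differed by 0.61 with FAEE-SAP (SE 0.30, adjusted p = 0.279, limma), which was -0.23 as deposited, and by 0.43 with saline (SE 0.30, adjusted p = 1.0, limma). *Pdx1* is high in beta cells. The summed level of 7 markers of islet cells, those of other islet cell types included, was 286 to 341 scaled RPKM after saline and 182 to 241 after FAEE-SAP in WT, against 304 to 374 after saline and 430 to 453 after FAEE-SAP in cKO, and none was at 0. In cKO against WT with FAEE-SAP, 4 of 7 were called higher, while as deposited their sums overlapped (367 to 463 in WT and 439 to 448 in cKO). The deposited sums after saline were lower than these in both genotypes (246.5 to 247.1 in WT and 201 to 231 in cKO), so the direction in WT turned. Their part in the *Pdx1* values was not tested.

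**Figure D2:**
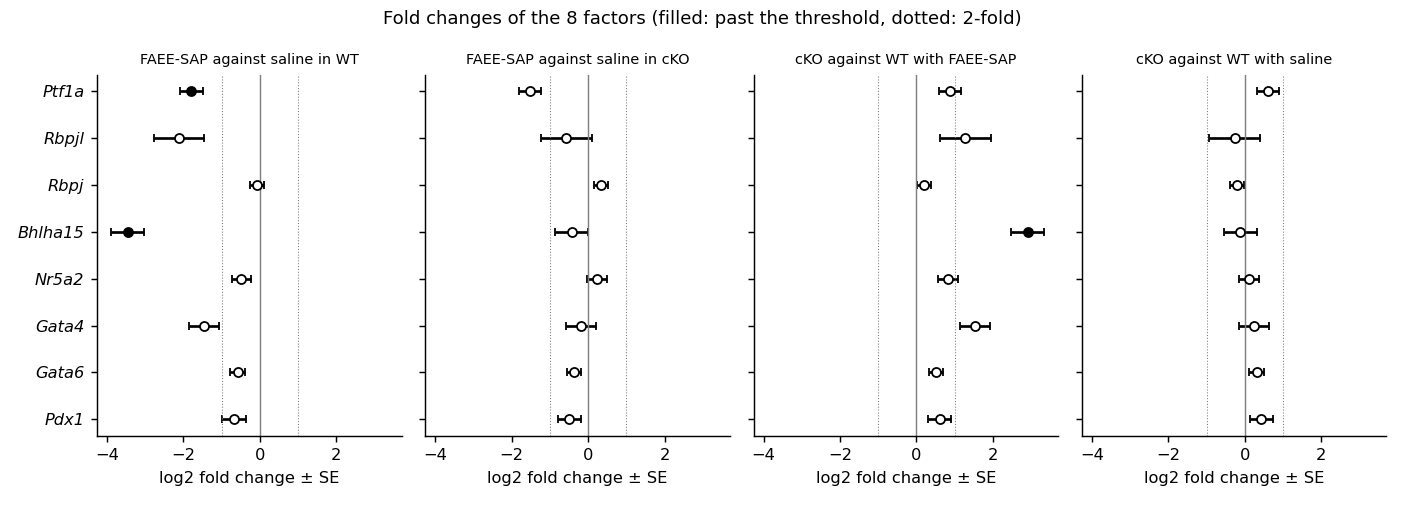
Log2 fold change ± SE (x axis) of each factor in 4 comparisons from limma on scaled RPKM; filled points passed the threshold and dotted lines mark 2-fold. The filled points are *Bhlha15* and *Ptf1a* with FAEE-SAP in WT (-3.46 and -1.80) and *Bhlha15* in cKO against WT with FAEE-SAP (2.91); with deposited values 4 of 8 factors lay below 0 in WT and 3 of 8 above 0 in cKO against WT.

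Counted together, 2 of the 8 genes were called lower in WT after FAEE-SAP, where 7.48% of all tested genes were called in either direction and 4.12% were called lower. All 8 were lower in both WT FAEE-SAP libraries than in both WT saline libraries, as were 29.4% of all genes, and the log2 fold change was below 0 for 8 of 8 under each of 3 scalings but for 4 of 8 as deposited. Their median log2 fold change was -1.07 against 0.01 for all genes. In cKO against WT with FAEE-SAP, 1 of 8 was called, where 2.64% of all genes were called and 1.66% were called higher. All 8 were higher in both cKO libraries (26.8% of all genes), with a median of 0.85 against 0.01, and 3 of 8 were above 0 as deposited. With FAEE-SAP in cKO, 0 of 8 were called (0.135% of all genes), although *Ptf1a* had an unadjusted p = 0.00122 (limma), and the median was -0.40. In that comparison 3 of 8 were lower (21.9% of all genes) and 1 of 8 higher (20.2%) without overlap, and as deposited 7 of 8 were above 0. In cKO against WT with saline, 0 of 8 were called by limma and 0 of all genes, 0 of 8 had an unadjusted p-value under 0.05, against 293 (2.63%) of all tested, and the members' median was 0.18. For the interaction 0 of 8 were called (0.0719% of all genes). The comparisons with FAEE-SAP in WT and of cKO against WT with FAEE-SAP share the 2 WT FAEE-SAP libraries. The 8 genes were chosen with earlier results of these data known, and several moved together over the libraries. Their counts are thus a description and not 8 separate observations.

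Ratios of members within a library do not depend on the scaling. The *Bhlha15* to *Ptf1a* ratio was 2.70 and 2.09 (saline) and 0.917 and 0.593 (FAEE-SAP) in WT pancreata and 1.71 and 1.20 (saline) and 2.79 and 3.40 (FAEE-SAP) in cKO pancreata. It was thus lower with FAEE-SAP in WT (3.22-fold) and higher in cKO (2.15-fold), with no overlap in either. The *Rbpjl* to *Rbpj* ratio, of the mature to the embryonic subunit, was 11.2 and 16.3 after saline and 4.88 and 2.12 after FAEE-SAP in WT, against 23.1 and 7.39 after saline and 9.55 and 4.89 after FAEE-SAP in cKO. *Rbpjl* stayed above *Rbpj* in every library, and the ratio was 4.21-fold lower with FAEE-SAP in WT. *Rbpj* is ubiquitous, so in bulk tissue this ratio can also change with the mix of cells, which was not tested. The *Nr5a2* to *Bhlha15* ratio was 0.213 and 0.147 in WT saline but 1.07 and 1.92 after FAEE-SAP, where alone *Nr5a2* exceeded *Bhlha15*, against 0.261 and 0.418 in cKO FAEE-SAP. The *Pdx1* to *Ptf1a* ratio was higher with FAEE-SAP in both genotypes, by 2.06-fold in WT and 1.99-fold in cKO. With 2 libraries against 2, an exact two-sided permutation test cannot give less than p = 0.333, so none of the 32 ratio comparisons could pass (adjusted p of at least 0.627).

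**Figure D3:**
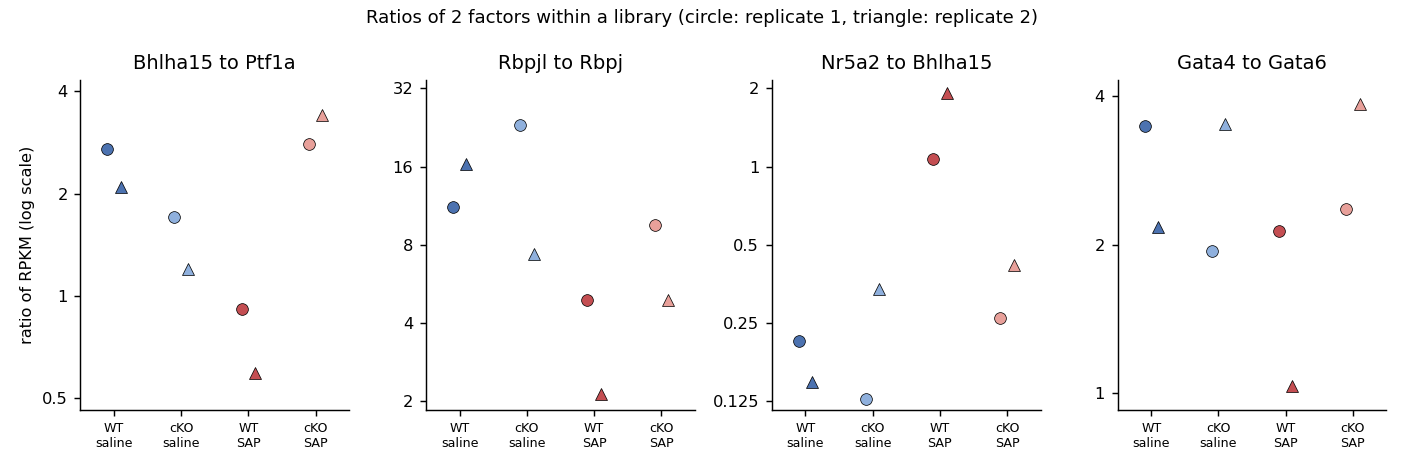
Ratio of the RPKM of 2 factors in the same library (y axis, log scale), by group (x axis, SAP for FAEE-SAP). *Bhlha15* to *Ptf1a* is lowest in WT FAEE-SAP (0.917 and 0.593) and highest in cKO FAEE-SAP (2.79 and 3.40), and *Nr5a2* to *Bhlha15* exceeds 1 in WT FAEE-SAP alone.

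No tested E protein, Id gene, or Notch pathway gene was called, where 7.48% of all genes were called with FAEE-SAP in WT, 2.64% in cKO against WT with FAEE-SAP, and 0.135% with FAEE-SAP in cKO, so that lists this short would hold few calls at those shares. Of the 3 E proteins (*Tcf3*, *Tcf4*, and *Tcf12*), which dimerise with PTF1A and MIST1, 0 were called in any comparison by limma. *Tcf3* averaged 1.86 ± 0.449, 1.30 ± 0.170, 2.64 ± 0.124, and 2.10 ± 0.0228 scaled RPKM in WT saline, cKO saline, WT FAEE-SAP, and cKO FAEE-SAP (SD, n = 2 each). Its FAEE-SAP libraries were above the saline ones in both genotypes, by 0.50 in WT (SE 0.21, adjusted p = 0.165, limma) and 0.66 in cKO (SE 0.21, adjusted p = 0.348, limma). None of the 3 tested Id genes, whose products sequester E proteins, was called, and 0 of 14 tested Notch pathway and RBPJ partner genes were called in any comparison by limma. At an unadjusted p-value under 0.05 there were 2 of 3 E proteins and 1 of 14 Notch genes with FAEE-SAP in WT (29.1% of all genes), and 1 and 2 in cKO (10.9%). In WT these were *Tcf3* at 0.50 and *Tcf4* at -0.56, in opposite directions. As deposited, all 3 E proteins, all 3 tested Id genes, and all 14 Notch genes were higher with FAEE-SAP in both genotypes, and after FAEE-SAP all were lower in cKO than in WT, as was the median gene. Their medians in WT were 1.16, 1.10, and 1.11 as deposited. *Notch1* differed widely between the libraries of 3 groups, and in cKO FAEE-SAP was at 3.45 ± 2.80 (SD, n = 2).

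Among 16 tested epithelial factors outside the 8, FAEE-SAP in WT gave 3 calls lower (*Creb3l1*, *Zfpm1*, and *Foxa2*) and 1 higher, where 4.12% of all genes were called lower and 3.36% higher. As deposited, 14 of the 16 were higher with FAEE-SAP in WT (median 0.68, against -0.55 scaled), and the WT groups overlapped for each of the 3 called lower. In cKO against WT with FAEE-SAP the list's median was 0.31 scaled but -0.59 as deposited, with 12 of 16 lower. *Creb3l1*, a membrane-bound factor of the secretory pathway, followed the pattern of *Bhlha15*, at 4.32 ± 0.181 scaled RPKM (saline) and 1.48 ± 0.228 (FAEE-SAP) in WT pancreata and 5.05 ± 0.0184 (saline) and 5.29 ± 1.10 (FAEE-SAP) in cKO pancreata (SD, n = 2 each). It fell in WT by 1.49 on the log2 scale (SE 0.20, adjusted p = 0.00695, limma) and was 1.77 higher in cKO than in WT with FAEE-SAP (SE 0.20, adjusted p = 0.00913, limma), the only gene of this list called there (1.66% of all genes were called higher). *Zfpm1* (FOG1), a GATA cofactor, fell in WT from 5.98 ± 0.909 to 2.27 ± 0.687 scaled RPKM (SD, n = 2; adjusted p = 0.0321, limma). *Xbp1*, the factor of the unfolded protein response, rose in WT from 50.7 ± 3.78 to 133.7 ± 19.4 (SD, n = 2; log2 fold change 1.39, SE 0.26, adjusted p = 0.0217, limma), the opposite direction to *Bhlha15*. Of 5 other GATA and NR5A genes, *Gata2* alone passed the filter on low values, and it was not called.

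Genes of digestive enzymes, the classical targets of PTF1, had larger median changes than the 8 factors. In WT, FAEE-SAP lowered all 16 digestive enzyme genes past the threshold (median log2 fold change -2.22), a direction kept as deposited by 16 of 16. In cKO against WT with FAEE-SAP, 14 of 16 were called higher (median 1.47, 16 of 16 higher as deposited). Most of these calls were lost without cKO FAEE-SAP replicate 2. In cKO none was called with FAEE-SAP (median -0.85, 14 of 16 at an unadjusted p-value under 0.05, limma). The deposited values of 12 of the 16 were lower there and of 4 higher (median -0.20). *Clps*, the lipase cofactor colipase, fell by 3.85 on the log2 scale in WT (SE 0.13, adjusted p = 7.05e-05, limma) and was 3.01 higher in cKO than in WT with FAEE-SAP (SE 0.13, adjusted p = 0.000415, limma). *Rnase1* and *Ctrc*, a ribonuclease and a chymotrypsin, were next, falling by 3.31 and 2.88 in WT. Of 12 genes of the secretory machinery, 6 were called lower in WT after FAEE-SAP and 3 higher in cKO against WT with FAEE-SAP. They included *Zg16*, a zymogen granule lectin (-2.85 and 2.42), and *Tmed6*, a cargo receptor family member (-2.86 and 2.12). As deposited, 6 of the 12 were lower in WT with FAEE-SAP and 5 of 12 higher in cKO against WT with FAEE-SAP.

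**Figure D4:**
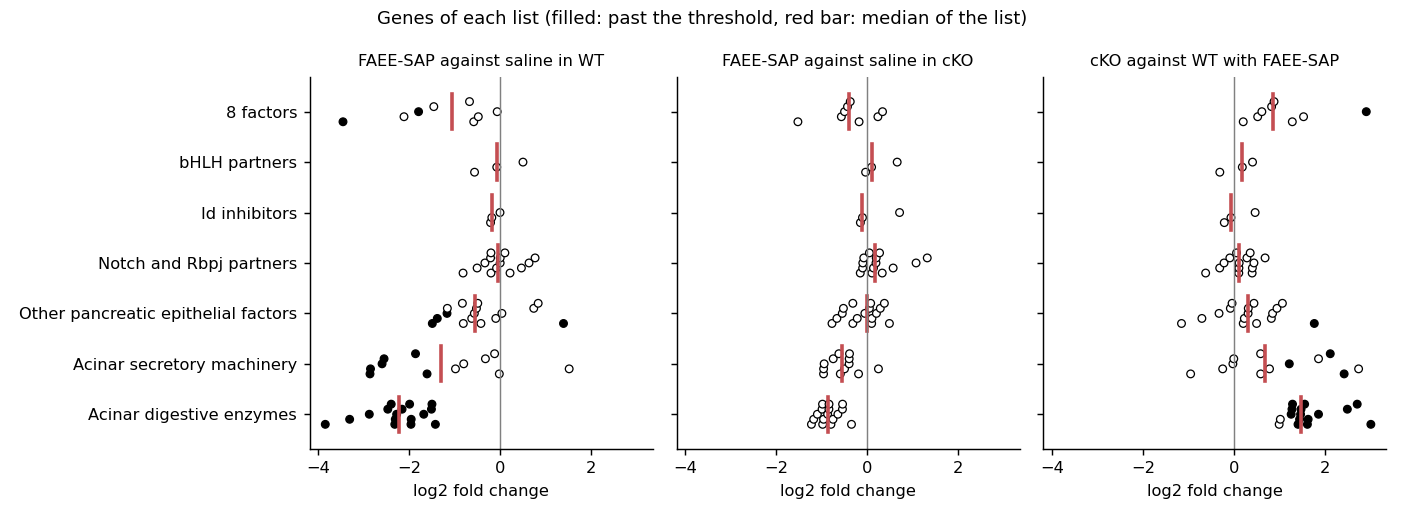
Log2 fold change on scaled values (x axis) of each tested gene of 7 lists (y axis) in 3 comparisons; filled points passed the threshold and red bars are list medians. Enzyme medians are -2.22, -0.85, and 1.47, those of the 8 factors are -1.07, -0.40, and 0.85, and the E protein, Id, and Notch lists have no filled point; as deposited the 8 factors' medians are 0.14, 0.24, and -0.10.

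Markers of other cells moved in the same comparisons. The summed level of 6 acinar markers was 201500 to 233300 scaled RPKM after saline and 68560 to 70470 after FAEE-SAP in WT, against 272400 to 272700 after saline and 164600 to 183900 after FAEE-SAP in cKO. That of 6 neutrophil markers was 1.32 to 2.23 and 1.21 to 3.67 in WT and cKO saline, where *Ly6g* was at 0, 53.4 to 58.9 in WT FAEE-SAP, and 12.2 to 19.8 in cKO FAEE-SAP. In WT, 5 of the 5 tested neutrophil markers were called higher with FAEE-SAP, and in cKO 0 of 5 by limma, with 4 of 5 at an unadjusted p-value under 0.05. Only *S100a8* was called lower in cKO than in WT after FAEE-SAP (-2.30, adjusted p = 0.0499, limma), and *Csf3r* differed by only -0.12 (adjusted p = 0.878, limma). *Gata4* is also a gene of mesothelium, and the summed level of 5 mesothelial markers was 2.32 to 3.05 (saline) and 1.12 to 1.19 (FAEE-SAP) in WT pancreata and 3.29 to 5.48 (saline) and 1.57 to 4.44 (FAEE-SAP) in cKO pancreata. For 1 of 4 tested mesothelial markers, *Upk3b*, the decrease in WT was called. The summed level of 6 ductal markers ranged from 23.9 to 35.8 over all libraries, and 0 of 5 tested were called in any comparison by limma, but single markers went opposite ways. *Krt19* was at 6.79 and 5.54 after saline and 11.5 and 11.1 after FAEE-SAP in WT (adjusted p = 0.0579, limma), and *Muc1* at 25.01 and 22.8 and then 16.3 and 10.7 (log2 fold change -0.85, adjusted p = 0.0487, limma), a change under 2-fold. The adipocyte sum of 5 markers was 23.1 to 36.6 after saline and 53.5 to 70.7 after FAEE-SAP in WT, against 23.9 to 45.3 and 18.2 to 59.2 in cKO, with 0 of 4 tested called in any comparison by limma. Most of it was *Fabp4*, at 20.03 and 28.5 after saline and 49.2 and 63.1 after FAEE-SAP in WT, while the WT groups overlapped for *Adipoq* and *Cidec*. Of 5 tested macrophage and monocyte markers, *Cd14* alone was called, higher with FAEE-SAP in WT (3.38 on the log2 scale, adjusted p = 0.00104, limma) and lower in cKO against WT with FAEE-SAP (-2.34, adjusted p = 0.00934, limma). No fibroblast, endothelial, or lymphoid marker was called by limma (0 of 7, 0 of 5, and 0 of 6 tested). The deposited sum of each of these sets was higher with FAEE-SAP in WT, without overlap, as was the deposited median gene. As deposited, the acinar sums were 168300 to 180500 after saline and 171400 to 178400 after FAEE-SAP in cKO, so these overlapped, but 169000 to 173600 and 135700 to 138100 in WT. The deposited mesothelial sums overlapped in WT (1.68 to 2.63 after saline and 2.15 to 2.40 after FAEE-SAP), and the ductal sums were higher with FAEE-SAP in WT (25.9 to 27.1 and 45.9 to 60.9) and in cKO (18.2 to 19.5 and 33.9 to 34.2). The part of these cells in the values of the 8 genes was not tested.

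Over the 8 libraries, the genes most like each factor among 11132 others were found by Pearson's r of log2(scaled RPKM + 0.1), as a description, since libraries of 4 groups share their group differences and the best of many genes is always high. *Bhlha15* was most like *Fkbp2* (r = 0.997), an endoplasmic reticulum prolyl isomerase, *Phkb* (0.994), and *Irak1* (0.994). *Ptf1a* was most like *Mecr* (0.993), with *Efemp1* (0.985) also among its nearest genes, and *Rbpjl* was most like *Sult1c2* (0.994), *Mfsd8* (0.987), and *Alg2* (0.984). *Pdx1* was most like *Gm5771* (0.983), *Prss1* (0.983), and *Prss3* (0.975), which are trypsinogen genes or their near copies, between which reads can be shared. *Nr5a2* was most like *Mpzl2* (0.975), *Lrig1* (0.958), and *Ubl5* (0.955), and *Gata4* was most like *Dnlz* (0.998), *Peg3* (0.987), and *Cadps2* (0.987). *Gata6* was most like *Arfgef3* (0.970), *Inpp5b* (0.969), and *Ate1* (0.967), and *Rbpj* was most like *Mcm2* (0.994), *Slc16a9* (0.943), and *Glis2* (0.936). Among the 8 themselves, *Bhlha15* had r = 0.887 with *Rbpjl* and 0.865 with *Ptf1a*, while *Rbpj* had r between -0.30 and 0.16 with each of the others.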

How the data were processed

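RNA-Seq of 8 mouse pancreas libraries was used, with 2 in each of the 4 groups given by the labels. Per the labels and the paper's methods, RNA was extracted with Trizol, libraries were made with a directional kit, and reads were filtered with fastp and mapped to GRCm38.p6 with CLC Genomics Workbench. The authors deposited RPKM for 48709 genes per library. How RPKM was computed is not given in the sources used here, and no counts were used.

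Genes were kept if 2 or more of the 8 libraries had a deposited RPKM of 0.5 or above. Values were scaled by the median of ratios over all libraries, transformed as log2(scaled RPKM + 0.1), and fitted in 1 model of 4 groups with limma 3.58.1 (R 4.3.3) with an intensity trend (4 residual degrees of freedom). A gene was called if its p-value adjusted by Benjamini-Hochberg over 11133 genes was under 0.05, with a change of at least 2-fold. P-values rest on the spread between the 2 libraries of each group, pooled over the 4 groups. This spread was also moderated across genes by limma (3.29 prior degrees of freedom). Library totals were recovered from low RPKM values and GENCODE vM21 exonic lengths (95.1% of genes matched by symbol), and 84.2% to 85.5% of values under 20 reads came out whole within 0.1 reads. These reads summed to 100.3% to 105.7% of the totals, so reads per gene are approximate, and their counting errors cover counting only.

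The members, gene lists, and markers were chosen with earlier results of these data known. Ratios of members were chosen after their values were seen. Named are all 8 members, in each other list up to 3 called genes with the largest change per comparison or, where none was called, up to 2 with the highest level, and the 3 genes most like each member. Results for some genes picked by these rules are not reported here. Alternatives were no scaling of the deposited values, quantile normalization, a trimmed mean of log ratios, no filter, an RPKM minimum of 2, pseudocounts of 1 and 0.01, no trend, each pair of groups alone, a replicate block, no fold minimum, and each library left out in turn. In a test on simulated data of 10457 genes for FAEE-SAP against saline in WT, 98.6% of 143 genes changed 4-fold or more were called, and 0.543% of 184 calls were unchanged genes. The simulated noise was independent between genes with a spread set by level alone, and changes were planted only in genes of higher level. These rates need not hold for the real libraries. Figures were drawn with matplotlib 3.10.9.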

Additional observations from a re-analysis of the deposited data

Results flagged for a closer look

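*Clps* and *Tmed6* differed in their response to FAEE-SAP between the genotypes by a test of the difference itself. The log2 response of *Clps* was 2.86 higher in cKO than in WT (SE 0.18, adjusted p = 0.00723, limma), and that of *Tmed6* was 1.91 higher (SE 0.20, adjusted p = 0.0413, limma). Both calls were lost with no filter, with the replicate block, and without WT saline replicate 1 or cKO FAEE-SAP replicate 1 or 2, where 0 genes were called by limma. At least 1 of them was also lost with a pseudocount of 0.01 and without WT FAEE-SAP replicate 2 or either cKO saline library.

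For 2 further results the libraries of WT moved one way with FAEE-SAP and those of cKO the other way. *Rbpj* was lower in both WT FAEE-SAP libraries than in both WT saline libraries and higher in both cKO FAEE-SAP libraries than in both cKO saline libraries, and the difference between the responses was 0.41 on the log2 scale (SE 0.25, adjusted p = 0.547, limma). This holds for scaled values. As deposited *Rbpj* was higher with FAEE-SAP in both genotypes, by 1.17 in WT and 0.93 in cKO, and the difference between the responses was -0.24. For the *Bhlha15* to *Ptf1a* ratio this difference was 2.79 on the log2 scale. An exact two-sided permutation of treatment within genotype gave p = 0.0556, the smallest that its 36 arrangements allow, and an adjusted p of 0.444 over 8 ratios.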

How the results depend on the processing

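With 2 libraries per group, the SE of a member's log2 fold change was 0.18 (*Rbpj*) to 0.66 (*Rbpjl*). Changes several times their SE also went uncalled, such as -1.52 for *Ptf1a* in cKO (SE 0.30), and several directions rest on the scaling. A trimmed mean of log ratios and quantile normalization kept the direction of all 40 member results and the calls of *Bhlha15* and *Ptf1a*. Under settings other than the values as deposited or a library left out, no member result turned its direction.

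With the values as deposited, 4454 genes were called in cKO against WT with FAEE-SAP (77 higher and 4377 lower, against 185 and 109 as reported) and 3 with saline. With FAEE-SAP, 7202 were called in WT (7122 higher and 80 lower, against 374 and 459) and 745 in cKO (743 and 2, against 14 and 1), and 791 for the interaction (21 and 770, against 5 and 3), where the median gene had shifted. On that scale 20 of 40 member log2 values turned. They were, for cKO against WT with FAEE-SAP, -0.069 for *Ptf1a*, -0.72 for *Rbpj*, -0.12 for *Nr5a2*, -0.40 for *Gata6*, and -0.23 for *Pdx1*, and with saline -0.19 for *Nr5a2* and -0.053 for *Gata4*. For FAEE-SAP in WT they were 1.17 for *Rbpj*, 0.81 for *Nr5a2*, 0.66 for *Gata6*, and 0.47 for *Pdx1*, and in cKO 0.081 for *Rbpjl*, 0.22 for *Bhlha15*, 0.46 for *Gata4*, 0.25 for *Gata6*, and 0.091 for *Pdx1*. For the interaction they were -0.37 for *Ptf1a*, -0.24 for *Rbpj*, -0.41 for *Gata6*, and -0.38 for *Pdx1*.

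In cKO against WT with FAEE-SAP (294 genes), 64 were called with no filter, 0 of the 8 members among them (*Bhlha15* adjusted p = 0.0719, limma), 187 with a pseudocount of 1, and 140 with that pair of groups alone. In WT (833 genes), 541 were called with no filter and 416 with a pseudocount of 1, and the pair alone called 4 members (*Ptf1a*, *Rbpjl*, *Bhlha15*, and *Gata4*). In cKO (15 genes), the pair alone called 5. Quantile normalization called 3 genes in cKO against WT with saline. For the interaction (8 genes), quantile normalization called 25, no filter 0, an RPKM minimum of 2 called 35, pseudocounts of 1 and 0.01 called 24 and 1, and no trend called 3, with 0 members in each. Apart from the shift of the deposited values and the larger number of genes tested with no filter, the cause was not tested.

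Same-numbered libraries were treated as sharing only a number, since not every pair of groups correlated positively. Their deviations from the group means correlated at 0.184 to 0.399 among 3 groups but at -0.522 to -0.175 with WT saline. The replicate block called 191 genes in cKO against WT with FAEE-SAP, 9 with FAEE-SAP in cKO, and 0 for the interaction, and changed no call of a member. A block with the WT saline numbers exchanged, added after seeing the data, called 730, 63, and 68. It called *Rbpjl*, *Bhlha15*, and *Gata4* in cKO against WT with FAEE-SAP, *Ptf1a* in cKO, *Bhlha15* for the interaction (adjusted p = 0.0400, limma), and *Ptf1a*, *Rbpjl*, *Bhlha15*, and *Gata4* in WT, with the WT saline pairing taken from the data and not from the design.

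Leaving out 1 library in turn, which leaves its group with 1 library assumed to vary like the others, gave 9 to 251 genes (0 to 1 members) in cKO against WT with FAEE-SAP, 0 to 1 with saline, 172 to 817 (1 to 3 members) in WT, 6 to 14 in cKO, and 0 to 4 for the interaction. The fewest, 9, came without cKO FAEE-SAP replicate 2, and counts were also over 1.5 times lower without cKO FAEE-SAP replicate 1 (49), WT FAEE-SAP replicate 2 (25), or WT saline replicate 1 (111) or 2 (115). In WT, the counts were 172 and 296 without WT saline replicate 1 or 2 and 187 without WT FAEE-SAP replicate 2. Members that turned their direction had log2 ranges, in cKO against WT with saline, of -1.15 to 0.62 (*Rbpjl*), -0.68 to 0.44 (*Bhlha15*), -0.11 to 0.33 (*Nr5a2*), and -0.20 to 0.69 (*Gata4*). With FAEE-SAP in cKO the ranges were -1.45 to 0.31 (*Rbpjl*), -0.99 to 0.12 (*Bhlha15*), -0.63 to 0.26 (*Gata4*), and -0.035 to 0.51 (*Nr5a2*), and for the interaction -0.25 to 0.60 (*Pdx1*) and -0.035 to 0.57 (*Ptf1a*). None of these was called. The call of *Gata4* in WT was gained without cKO saline replicate 1 (adjusted p = 0.0491) or 2 (0.0492), from limma.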
